A study of Solanum tuberosum with 8 samples.

Results

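Myo-inositol-1-phosphate synthase (MIPS) was represented by 2 probes that the study describes by that name, MICRO.2503.C3 and bf_arrayxxx_0082g09.t3m.scf. The contig name of the first, MICRO.2503, brought in 2 more, MICRO.2503.C1 and MICRO.2503.C2. These 4 are all the probes that matched among the 42034 potato probes of the array. The study's tables describe the first pair as most similar to MIPS of tobacco species (Nicotiana tabacum and Nicotiana paniculata). No description of MICRO.2503.C1 and MICRO.2503.C2 was found in those tables, so that these can be tied to MIPS only through the contig name. The array files list probes by identifier and hold no sequence, and none is printed here.

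Leaf RNA was taken from wild-type (WT) potato and from the line Stpfld252, which carries a cyanobacterial flavodoxin (Fld) sent to the plastids by a transit peptide of pea and driven by the constitutive 35S promoter. The methods name Solara as the transformed cultivar, and Stpfld252 is a single transformed line. Plants grown for 4 weeks in soil were either watered on (control) or left without water for 3 days (drought), and young expanded leaves of the fifth node were pooled from several plants. There were thus 4 groups, WT control, Stpfld252 control, WT drought and Stpfld252 drought, with 2 one-colour arrays in each. The 2 arrays of a group carry RNA of separate pools from independent experiments, as the labels state. The design asks how drought changed the MIPS transcripts in either line, and how Fld changed them in watered and in drought-treated leaves.

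MIPS turns glucose 6-phosphate into an inositol monophosphate, the only route by which plants make myo-inositol anew. A phosphatase then frees myo-inositol, which is used in several directions. Galactinol synthase joins it to galactose, and galactinol feeds the raffinose family of oligosaccharides, soluble sugars known to accumulate in leaves short of water. Inositol oxygenase turns it into glucuronic acid for cell wall sugars, kinases build phytate from it, and it is the head group of the phosphoinositides, the lipids of phospholipase C signalling.

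The treatments were hybridized on separate slides, 4 drought arrays on one and 4 control arrays on the other, which means that effects of slide and drought cannot be told apart. Each slide held both lines, Stpfld252 at its positions 1 and 2 and WT at 3 and 4. Signal was 3.64 to 4.45 times the local background at the median spot, 77.8% to 80.7% of an array's probes were flagged as well above background, and 0 probes were saturated. The replicate SD over all tested probes was 0.136 to 0.174 on the log2 scale. No probe for the Fld transgene was identified, so the genotype was not checked on the arrays. As markers of the tissue, 13 probes for the small subunit of rubisco and chlorophyll a/b binding proteins were well above background on both arrays in 3 of the groups, and 11 of the 13 in WT drought. Their changes had a median of −1.81 on the log2 scale in WT under drought, where 13 of 13 were called lower, and of −0.23 in Stpfld252, where 5 of 13 were. Under drought 12 of the 13 were called higher in Stpfld252 than in WT, with a median difference of 1.71. The 7 probes for patatin, the storage protein of tubers, were called higher in Stpfld252 than in WT under control conditions in 7 of 7 cases (median 1.89) and under drought in 6 of 7 (median 2.55), where only 1 of the 7 was well above background on both WT arrays. With a normexp offset of 50 these were 4 of 7 (median 1.15) and 5 of 7 (1.23), and with the processed signal the median under drought was 4.68. All but 1 of the patatin probes share a contig name, and several of the 13 leaf probes share contig names too. Counts over them are thus not counts of separate genes. Over all tested probes, drought called 10.3% lower in WT and 8.14% lower in Stpfld252. In Stpfld252 against WT, 3.99% were called higher under control conditions and 6.15% under drought. The part of the marker shifts in the results below was not tested. In leaf samples fewer cells of a type and less RNA per cell cannot be told apart.

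The MIPS pair was brightest in drought-treated WT leaves and dimmest in watered WT leaves, with both groups of Stpfld252 in between. At MICRO.2503.C3 the normalized signal on the log2 scale was 13.22 and 13.06 on the WT control arrays. It was 14.37 and 14.48 in Stpfld252 control. After 3 days without water it was 17.39 on both Stpfld252 arrays and 17.85 on both WT arrays. The 4 groups did not overlap, and the smallest distance between neighbours, 0.46, separated the lines under drought. The equal values of the replicates are set by the quantile normalization, which gives the same value to the same rank. The probe was the 11th brightest on both WT drought arrays and the 16th on both Stpfld252 drought arrays, by median signal before normalization.

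The other MIPS probe of the pair gave the same order at a separate spot of the array. At bf_arrayxxx_0082g09.t3m.scf the normalized log2 signal was 10.41 and 10.55 in WT control and 11.63 and 11.55 in Stpfld252 control. Under drought it was 14.97 and 15.08 in Stpfld252, and 15.63 and 15.50 in WT. Again no groups overlapped, and the closest arrays of the lines under drought were 0.42 apart, while the SD within a group was at most 0.10.

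**Figure D1:**
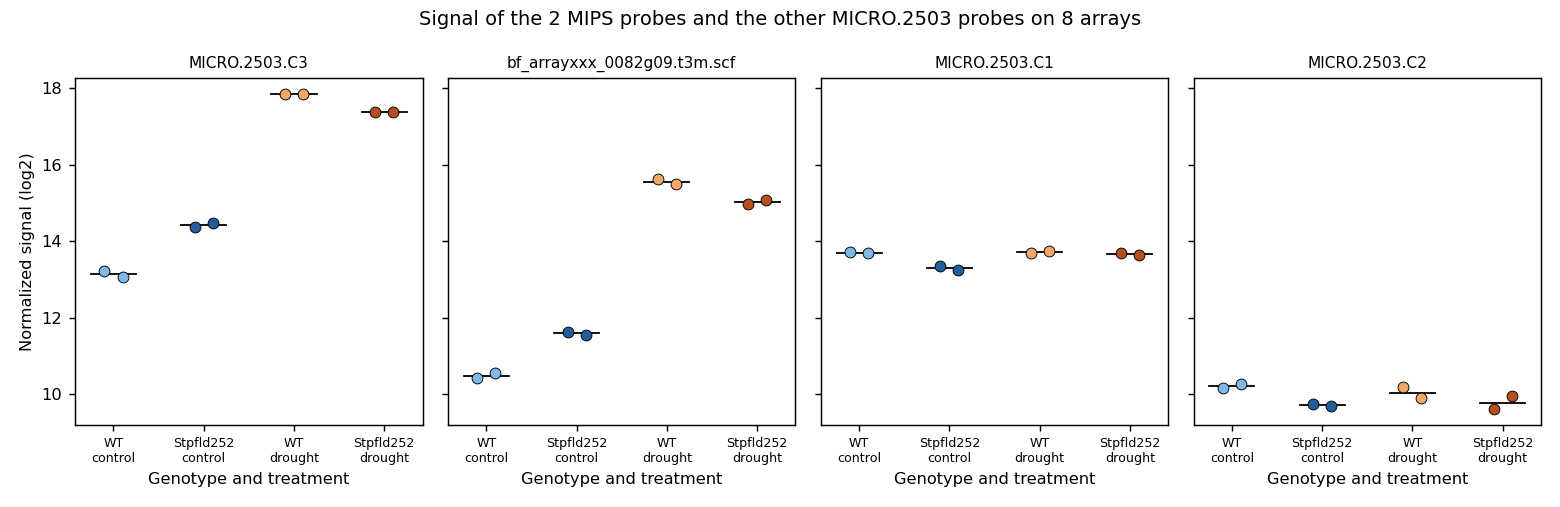
Normalized signal (log2, vertical axis) of the 4 probes on each of the 8 arrays, by genotype and treatment; points are arrays and bars are the means of 2 arrays. The 2 MIPS probes on the left are lowest in WT control, followed by Stpfld252 control, Stpfld252 drought and WT drought, whereas MICRO.2503.C1 and MICRO.2503.C2 stay within a narrow range; levels of different probes are not comparable.

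The study placed this pair in a group of 35 probes that were called higher after drought in both lines, called higher in watered Stpfld252 than in watered WT, and not called between the lines under drought. The pair was chosen for this pattern on these same arrays, so that its values are given as a description, without a test. In WT, the drought level was 26.1-fold above control at MICRO.2503.C3, a log2 change of 4.71 (SE 0.083). At bf_arrayxxx_0082g09.t3m.scf it was 33.8-fold above control, a log2 change of 5.08 (SE 0.091). Among the 36435 probes tested, these were the 130th and the 104th highest changes. At MICRO.2503.C3 the normalization made the drought replicates of each line equal, so its SEs do not measure their spread.

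In Stpfld252 the same comparison gave 7.80-fold (log2 change 2.96, SE 0.083) at MICRO.2503.C3 and 10.8-fold (3.44, SE 0.091) at bf_arrayxxx_0082g09.t3m.scf. They ranked 123rd and 79th of all tested probes. On the log2 scale the drought change in Stpfld252 was 63.0% and 67.6% of that in WT, and the difference between the responses, Stpfld252 minus WT, was −1.74 (SE 0.12) and −1.64 (SE 0.13). The step from control to drought was smaller in Stpfld252, which the pattern of the choice favours, and over the 35 probes of the group this difference lay between −3.47 and −0.50.

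Without drought, the pair was higher in Stpfld252 than in WT by 2.44-fold at MICRO.2503.C3 (log2 difference 1.29, SE 0.083) and by 2.15-fold at bf_arrayxxx_0082g09.t3m.scf (1.11, SE 0.091). The difference came to 27.3% and 21.8% of the WT drought change of the same probe on the log2 scale. For the pattern used in the choice, the nearest probe just above the 2-fold limit in this comparison had a log2 difference of 1.01 and the nearest just below it 0.99. Within the group of 35, this difference ranged from 1.11 to 2.94 with a median of 1.60, and the MIPS probes were the 27th and the 35th from the top. In the drought change of Stpfld252, by contrast, they were the 3rd and the 2nd of the 35, and in that of WT the 8th and the 4th.

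**Figure D2:**
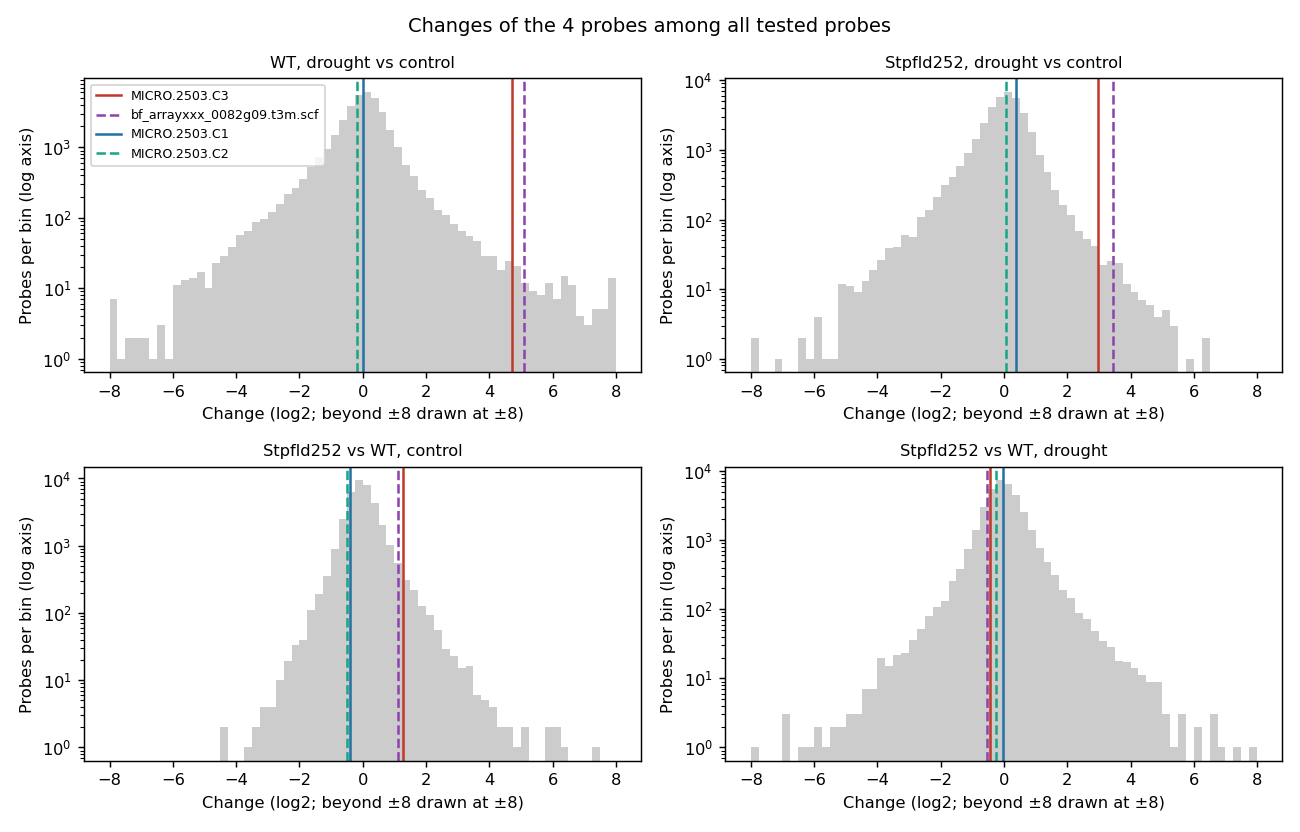
Histograms of the log2 changes of all 36435 tested probes in the 4 comparisons (horizontal axis, change; vertical axis, number of probes per bin of 0.25, log scale), with vertical lines for the 4 probes. The MIPS pair lies in the far upper tail of both drought comparisons and close to the bulk when the lines are compared under drought, and the lines of MICRO.2503.C1 and MICRO.2503.C2 lie in the bulk in all 4 panels.

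Between the lines under drought the differences at the pair were small, as the choice required (−0.99 to 0.88 over the group of 35), and here the value depended on the processing. With quantile normalization the Stpfld252 level was below that of WT by a log2 difference of −0.46 (SE 0.083) at MICRO.2503.C3 and −0.54 (SE 0.091) at bf_arrayxxx_0082g09.t3m.scf. The SE at MICRO.2503.C3 does not measure the spread of its drought arrays, which the normalization made equal. The median signals of MICRO.2503.C3 before any normalization were 197887 and 185346 on the WT drought arrays and 177045 and 171640 on the Stpfld252 drought arrays. Median scaling and cyclic loess put the difference at this probe at −0.12 and −0.13, and the processed signal of the scanner software, scaled to the 75th percentile, turned it to 0.15. At bf_arrayxxx_0082g09.t3m.scf it kept its sign in all these settings and lay between −0.60 and −0.38. The order of the lines under drought was thus the same in all settings at one probe of the pair only.

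The brightest spots were read in a different way. The scanner software takes the value of spots too bright for the first scan from a second scan at low gain and scales it up, which applied to 427 to 664 probes per array. At MICRO.2503.C3 this was so on the 4 drought arrays and on both Stpfld252 control arrays but not in WT control, where the median signal was 8713 and 7428. At bf_arrayxxx_0082g09.t3m.scf it was so on the 4 drought arrays and on no control array. Its median signal was 1314 and 1412.5 in WT control and 47311 to 53900.4 in WT drought. The comparison of the lines under control conditions was within 1 scan at bf_arrayxxx_0082g09.t3m.scf, and both scans entered it at MICRO.2503.C3, with differences of 1.11 and 1.29. The part of the scan in the drought changes was not tested.

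**Figure D3:**
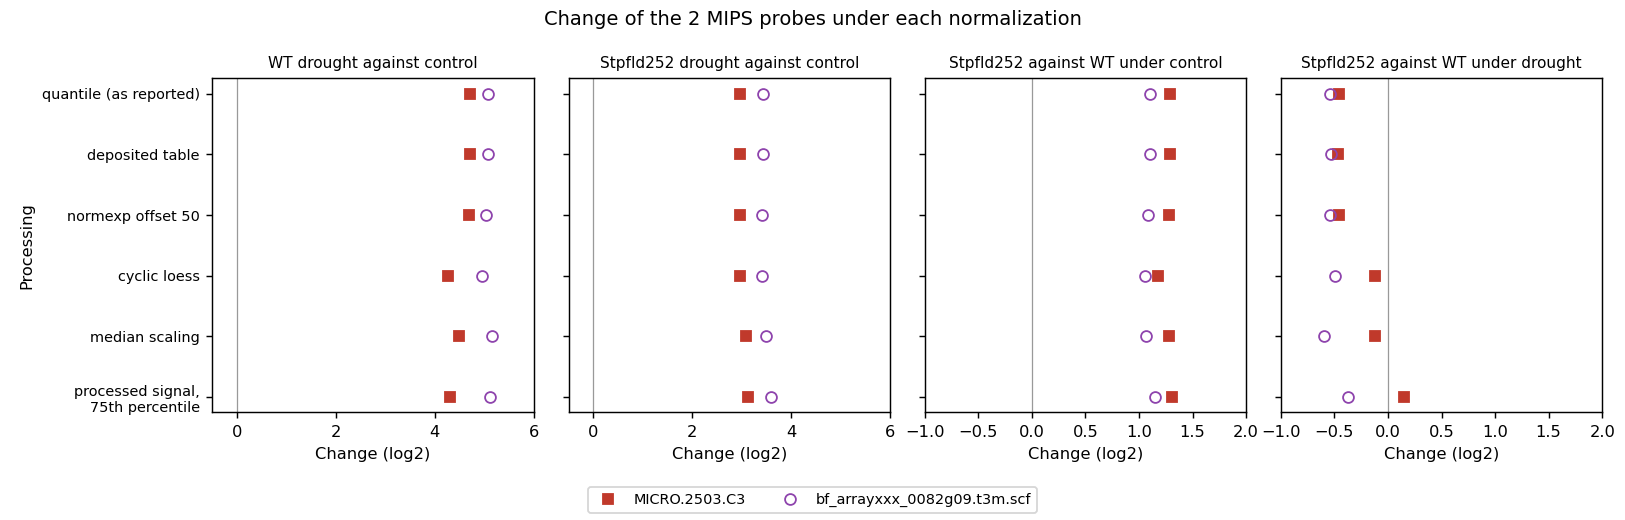
Log2 change of the 2 MIPS probes (horizontal axis) in 4 comparisons under 6 ways of processing (vertical axis); filled squares are MICRO.2503.C3 and open circles bf_arrayxxx_0082g09.t3m.scf. The changes by drought and the difference under control conditions keep their sign and order of size, and only under drought does MICRO.2503.C3 move from −0.46 to 0.15.

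For the background, 8.48% of all tested probes were called higher and 10.3% lower by drought in WT, where called means over 2-fold with an adjusted p below 0.05 in limma's test. In Stpfld252 5.88% were called higher and 8.14% lower. Under control conditions 3.99% were called higher and 2.09% lower in Stpfld252 than in WT. Called higher in all these 3 comparisons were 113 probes (0.31%), of which 57 (0.156% of the tested probes) were not called between the lines under drought and so had the full pattern that chose the pair. The 4 groups stood in the order of the pair without overlap at 1098 probes (3.01%). Of the 57 probes, 9, the pair included, had a WT drought change at least as large as that of MICRO.2503.C3.

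The 2 further probes that carry the contig name of MICRO.2503.C3 did not follow the pair. They were found by name and not by their values, so that limma's test applies to them. At MICRO.2503.C1 the normalized log2 signal was 13.72 and 13.68 in WT control, 13.36 and 13.24 in Stpfld252 control, 13.69 and 13.73 in WT drought and 13.70 and 13.65 in Stpfld252 drought. Only the Stpfld252 control arrays stood apart, below all others. The drought change in WT was 0.01 on the log2 scale (SE 0.076, adjusted p = 0.91), with a 95% interval of −0.17 to 0.19, or 0.889-fold to 1.14-fold. In Stpfld252 it was 0.38 (SE 0.076, adjusted p = 0.0046), and under control conditions the level in Stpfld252 was below that in WT by −0.40 (SE 0.076, adjusted p = 0.0059). Both differences are well under 2-fold, and 0 of the 5 comparisons at this probe were called. The opposite sign to the MIPS pair under control conditions is thus a matter of 1.32-fold. The interval of the WT drought change does not cover the choice of processing. That change was 0.05 with cyclic loess, within the interval, but 0.25 with median scaling and 0.34 with the processed signal, above it. In Stpfld252 the processed signal put the drought change at 0.71.

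At MICRO.2503.C2 the normalized log2 signal was 10.17 and 10.27 in WT control and 9.75 and 9.69 in Stpfld252 control. It was 10.18 and 9.89 in WT drought and 9.62 and 9.95 in Stpfld252 drought, so that the drought arrays of the lines overlapped. The drought change was −0.18 in WT (adjusted p = 0.30, 95% interval −0.50 to 0.15) and 0.07 in Stpfld252 (adjusted p = 0.71, 95% interval −0.26 to 0.39). Under control conditions Stpfld252 was below WT by −0.50 (SE 0.14, adjusted p = 0.025), and under drought by −0.26 (adjusted p = 0.15). No comparison was called at this probe either, and the intervals of both drought changes leave out a change of 2-fold in either direction. The difference between the responses was 0.36 (SE 0.11, adjusted p = 0.035) at MICRO.2503.C1 and 0.24 (SE 0.19, adjusted p = 0.36) at MICRO.2503.C2, both opposite in sign to that of the pair. All 4 probes were well above background on all 8 arrays.

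The profile of the pair was set against 30905 tested probes that were well above background on every array. Likeness was the root mean square difference between the 4 group means, each probe centred on its own mean, and r is Pearson's coefficient over the 8 arrays, given as a description since the probes share arrays and normalization. By this measure each MIPS probe lay 0.11 from the mean of the pair, MICRO.2503.C1 lay 2.01 away and MICRO.2503.C2 2.14. The value of the MIPS probes is equal because the reference is their own mean, so it is not comparable with distances of other probes. Probes named below were picked by this likeness, so a high r follows from the choice. The nearest probe was bf_acdcxxxx_0057f01.t3m.scf (0.038, r = 0.999), with drought changes of 4.92 in WT and 3.29 in Stpfld252. It has no sequence match in the tables of gene descriptions. Its spot was faint in WT control, with a lowest median signal of 60 beside a local background of up to 58. Next was MICRO.15316.C1 (0.20, r = 0.995), a putative pathogenesis-related protein, which differed by 4.97 in WT and 2.65 in Stpfld252.

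A lipid transfer protein, MICRO.13027.C1 (0.24, r = 0.995), of a family that carries lipids to the cuticle, and bf_acdcxxxx_0028f11.t3m.scf (0.28, r = 0.991), a probable serine protease inhibitor, were the next in likeness. A pair of probes of 1 contig for a hypothetical protein, MICRO.14630.C1 (0.32, r = 0.991) and MICRO.14630.C2 (0.34, r = 0.987), completed the 6 nearest. Their difference between the lines under control conditions was larger than that of the pair, 2.07 and 2.12. Of these 6 probes 3 belong to the same group of 35 as the MIPS pair.

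**Figure D4:**
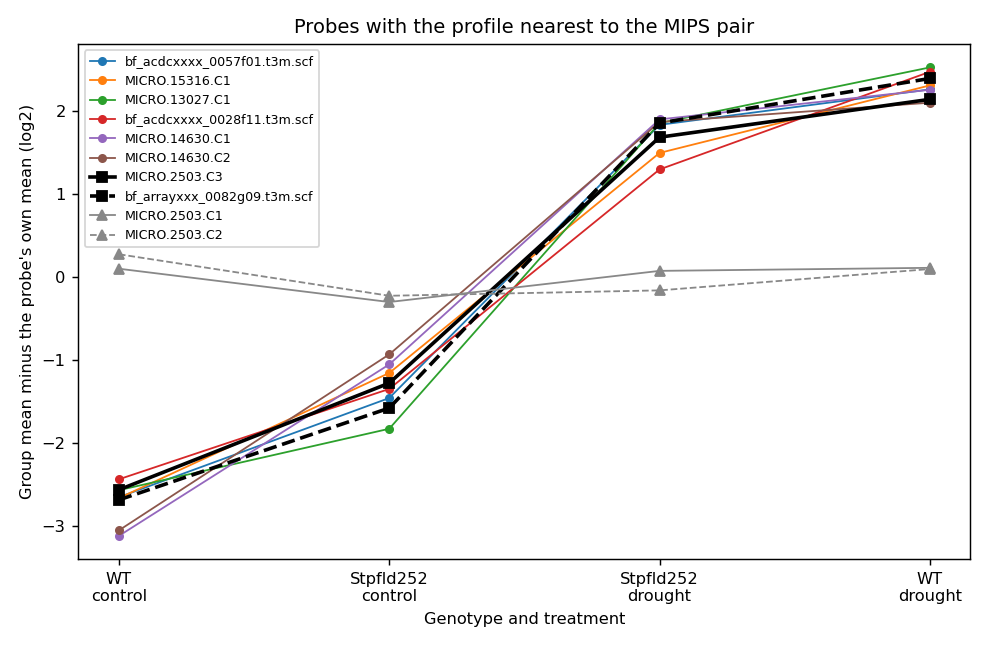
Group means (log2) minus each probe's own mean (vertical axis), over the 4 groups. Black squares are the 2 MIPS probes, coloured circles the 6 probes with the nearest profile, and grey triangles MICRO.2503.C1 and MICRO.2503.C2. The 6 probes run with the pair from about −3 to −2 in WT control to about 2 to 3 in WT drought, while the grey profiles stay within 0.5 of 0.

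The other genes of inositol and raffinose metabolism were taken from the study's tables of probes called on these same arrays, so counts over them describe chosen probes. Without MIPS there were 37 such probes, all tested. Drought in WT was called higher at 13 and lower at 14 of them, beside 8.48% and 10.3% of all probes. The median change was −0.37 beside 0.04 for all tested probes. In Stpfld252 9 were called higher and 11 lower (median −0.14, all tested probes 0.05), beside 5.88% and 8.14% of all probes. Of the 9, MICRO.15520.C1 was not well above background in either treatment. Under control conditions 2 were higher and 8 lower in Stpfld252 than in WT (median −0.15, all tested probes −0.04), beside 3.99% and 2.09% of all probes. The 8 include MICRO.15520.C1, again with both groups not well above background. Under drought 7 were higher and 18 lower (median −0.72, all tested probes −0.03), beside 6.15% called higher and 5.15% called lower over all probes. The difference between the responses was called for 9 probes upwards and 12 downwards, beside 6.14% and 6.26% of all probes.

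The step after MIPS moved with it in part. The phosphatase probes MICRO.8030.C1 and MICRO.8030.C2, described as an inositol monophosphatase family protein, were induced by drought in both lines. MICRO.8030.C1 had a normalized log2 signal of 9.32 and 9.30 in WT control, 9.91 and 9.75 in Stpfld252 control, 11.23 and 11.12 in WT drought and 11.21 and 11.12 in Stpfld252 drought. The drought change was 1.86 in WT (SE 0.086, adjusted p = 2.0e-06 in limma's test) and 1.33 in Stpfld252 (SE 0.086, adjusted p = 1.8e-05). The lines differed under control conditions by 0.52 (adjusted p = 0.0033), under 2-fold, and the drought arrays of the lines overlapped. At MICRO.8030.C2 the changes were 1.71 and 1.34. Under drought the lines differed by −0.01 (adjusted p = 0.91) at MICRO.8030.C1 and by 0.08 (adjusted p = 0.50) at MICRO.8030.C2.

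MICRO.12161.C1 and bf_mxflxxxx_0008b10.t3m.scf stand in the same category of the study, but their descriptions name a calmodulin-like protein. Both were repressed by drought in both lines, by −2.50 and −2.43 in WT and by −1.82 and −1.88 in Stpfld252. They were also higher in Stpfld252 than in WT, by 1.21 and 1.36 under control conditions and by 1.89 and 1.91 under drought. These 2 are the only probes of the list, MIPS set aside, that were called higher in watered Stpfld252.

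For inositol oxygenase, which opens the ring of inositol, 2 probes were measured, and either was well above background only on the WT drought arrays. At bf_mxflxxxx_0051b11.t3m.scf the normalized log2 signal was 9.02 and 9.09 there and at most 4.22 on the 6 other arrays. By the fitted change it was 36.5-fold higher in WT drought than in WT control (adjusted p = 9.9e-08 in limma's test). It was 30.03-fold higher than in Stpfld252 drought (adjusted p = 4.4e-07). The dimmer groups were not well above background, and these folds hold for this background correction only. With a normexp offset of 50 the log2 differences, WT drought minus WT control and Stpfld252 minus WT under drought, were 3.13 and −3.07, and with the processed signal 7.61 and −7.79. With the background correction used here, MICRO.15520.C1 was at least 3.42-fold higher in WT drought than in WT control (adjusted p = 0.00092). This call was lost with a normexp offset of 50 (0.59) and with median scaling (1.96, adjusted p = 0.058). Such a bound sets signals under the dimmest probe well above background to that floor. It too holds for this background correction only. At bf_mxflxxxx_0051b11.t3m.scf the floor left the fitted folds as they were, so these are not bounds. In Stpfld252, where drought left MIPS 2.96 to 3.44 above control on the log2 scale, neither oxygenase probe was well above background on any array.

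Galactinol synthase, which commits inositol to the raffinose sugars, was split between its 5 probes. MICRO.14762.C1 had a normalized log2 signal of 4.72 and 4.80 in WT control, 4.80 and 4.04 in Stpfld252 control, 9.35 and 8.95 in WT drought and 7.06 and 7.08 in Stpfld252 drought. It was induced by 4.39 in WT (SE 0.24, adjusted p = 4.6e-06) and by 2.65 in Stpfld252 (SE 0.24, adjusted p = 8.9e-05), which came close to the values of the MIPS pair, but without a called difference under control conditions (−0.34, adjusted p = 0.29). One of its Stpfld252 control arrays was not well above background.

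MICRO.5668.C1 was the brighter spot, with 12.54 and 12.66 in WT control, 12.56 and 12.62 in Stpfld252 control, 15.59 and 15.73 in WT drought and 13.67 and 13.83 in Stpfld252 drought. It was induced by 3.06 in WT and 1.16 in Stpfld252, and the difference between the responses was −1.90 (SE 0.13, adjusted p = 7.0e-05). Under control conditions the lines differed by −0.01 (SE 0.094, adjusted p = 0.92). Here drought gave the direction seen at MIPS in both lines, and the watered lines did not differ by a called amount.

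The other 3 galactinol synthase probes went other ways. MICRO.7446.C1 was repressed by drought in WT (−1.27, SE 0.076, adjusted p = 7.5e-06) and was lower in Stpfld252 than in WT under control conditions (−1.12, adjusted p = 6.5e-05). MICRO.7446.C2, of the same contig, was induced in Stpfld252 (2.09, SE 0.071, adjusted p = 1.1e-06) and not called in WT (0.41). Their differences between the responses were 1.95 and 1.67, opposite in sign to MIPS. cSTB31L21TH, which has no sequence match in the study's tables and was placed by its category, was repressed in WT by −1.21 and changed by −0.80 in Stpfld252, which was not called.

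The list held 10 probes for raffinose synthases and alkaline alpha-galactosidases, related enzymes that make or break the raffinose sugars. Of these, drought induced 4 in WT and 1 in Stpfld252 and repressed 0 and 3. Over all tested probes, drought called 8.48% and 5.88% higher in these lines and 10.3% and 8.14% lower. All 10 were lower in Stpfld252 than in WT under drought, with a median of −2.10 and a range of −3.69 to −1.23. Over all tested probes 5.15% were called lower in this comparison. The 10 were taken from tables of probes called on these same arrays, and MICRO.1247.C3 and MICRO.1247.C4 among them share a contig. The probes with the largest WT drought changes were those described as raffinose synthase of cucumber. At STMGZ03TV the normalized log2 signal was 7.54 and 7.43 in WT control, 7.48 and 7.42 in Stpfld252 control, 10.56 and 10.53 in WT drought and 7.94 and 7.84 in Stpfld252 drought. It was induced by 3.06 in WT (SE 0.078, adjusted p = 1.4e-07), and the 0.44 in Stpfld252 was under 2-fold. At cSTS29E8TH the change was 2.98 in WT and 0.05 in Stpfld252 (adjusted p = 0.85). These probes thus shared the direction of MIPS in WT, and neither was called in Stpfld252. Between the lines under drought, 9 or 10 of the 10 probes were called lower with each background correction and normalization tried on all 8 arrays, with the median between −2.47 and −1.84. This count describes probes chosen by their calls and is not a test of the enzymes.

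The 2 probes described as alpha-galactosidase of tomato, which splits galactose from such sugars, were repressed in WT, STMGD95TV by −2.68 (SE 0.086, adjusted p = 3.7e-07) and MICRO.13196.C1 by −2.20 (SE 0.11, adjusted p = 2.3e-06). In Stpfld252 the changes were −1.40, which was called, and −0.79, which was not. Both probes were higher in Stpfld252 than in WT under drought, by 1.81 and 1.38.

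On the signalling side, the 5 probes for inositol polyphosphate 5-phosphatases, which remove a phosphate from soluble inositol phosphates or from phosphoinositides, were all repressed by drought in WT, with a median change of −2.68. In Stpfld252 4 of the 5 were repressed (median −2.31). Over all tested probes, drought called 10.3% lower in WT and 8.14% lower in Stpfld252. The 5 were taken from the study's tables of probes called on these same arrays, so the counts describe chosen probes. With the background correction used here, MICRO.16736.C1 was at least 22.7-fold lower in WT drought than in WT control (adjusted p = 3.7e-08 in limma's test). No WT drought array was well above background, and the bound does not hold under other corrections. The log2 change of this probe was −2.41 with a normexp offset of 50 and −7.69 with the processed signal. MICRO.10466.C1 had a normalized log2 signal of 8.70 and 8.79 in WT control and 5.82 and 5.80 in WT drought, a change of −2.93 (SE 0.085, adjusted p = 2.4e-07), and of −2.37 in Stpfld252. No probe of this role was called between the lines under control conditions.

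Inositol phosphate kinases add phosphates on the way to phytate. MICRO.16690.C1 had a normalized log2 signal of 10.43 and 10.28 in WT control, 10.76 and 10.76 in Stpfld252 control, 6.37 and 6.25 in WT drought and 10.77 and 10.72 in Stpfld252 drought. The drought-treated WT leaves lay far below the rest, and WT control slightly below both Stpfld252 groups. The change in WT was −4.04 (SE 0.084, adjusted p = 6.3e-08), against −0.02 (adjusted p = 0.88) in Stpfld252, and the watered lines differed by 0.40 (adjusted p = 0.0086). MICRO.16690.C2, of the same contig, changed by −3.75 and −0.14. Against MIPS, the direction in WT was the opposite.

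Among 6 probes for phosphoinositide kinases and phospholipase C, 3 were induced and 1 was repressed by drought in WT, against 2 and 1 in Stpfld252. Over all tested probes, 8.48% were called higher and 10.3% lower in WT, against 5.88% and 8.14% in Stpfld252. The 6 were likewise taken from tables of probes called on these same arrays. The largest WT changes were 2.51 (SE 0.092, adjusted p = 6.8e-07) at MICRO.8830.C1, similar to a phosphatidylinositol phosphate kinase, and 2.09 (SE 0.15, adjusted p = 2.1e-05) at cSTB38B8TH, which has no sequence match. In Stpfld252 both were induced too, MICRO.8830.C1 by 1.45. Both were lower in Stpfld252 than in WT under drought, by −1.11 and −1.32, and with a normexp offset of 50 by −0.99 and −0.87, under 2-fold. At cSTB38B8TH the call in Stpfld252 was lost with a normexp offset of 50 (0.50), in the deposited table (0.76), and without Stpfld252 drought replicate 2 (0.91).

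**Figure D5:**
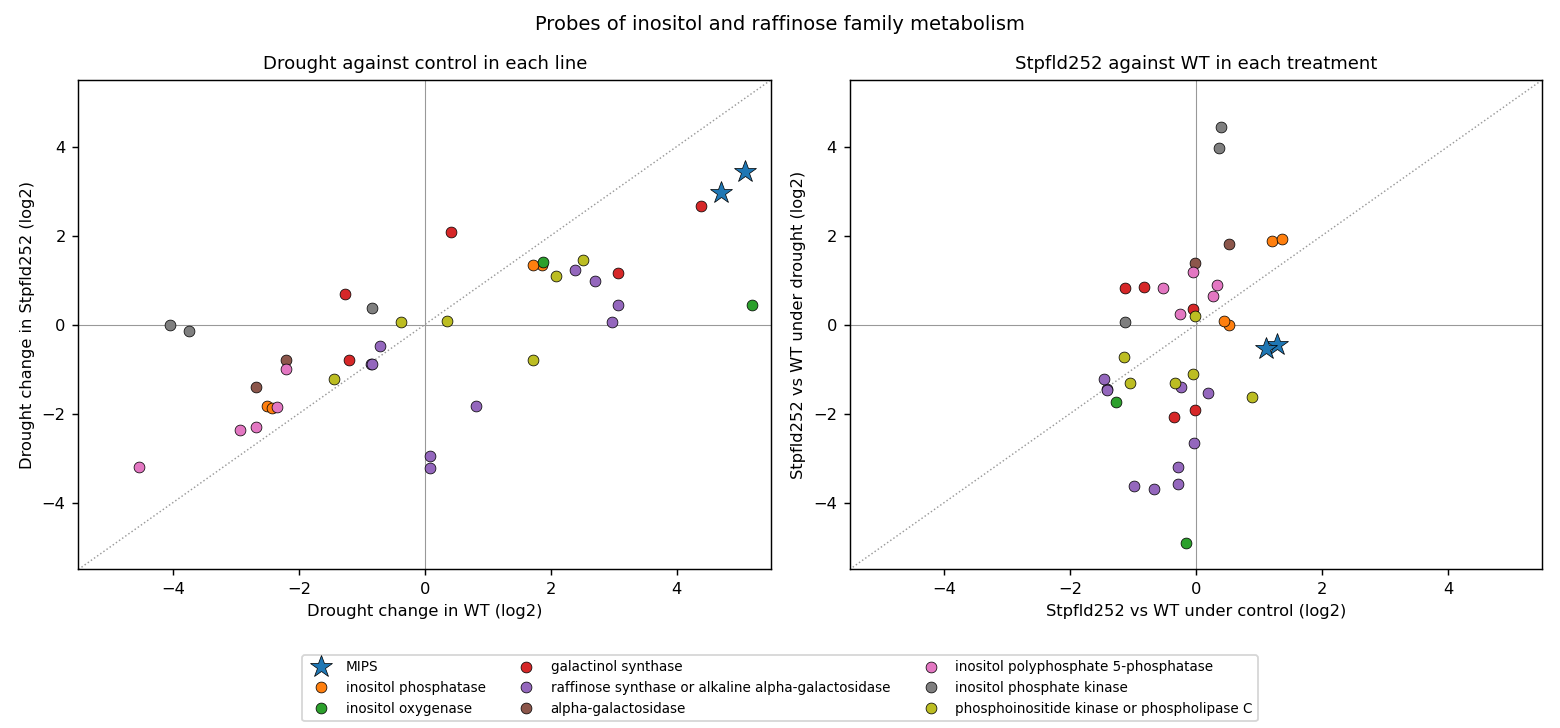
Log2 changes of the 37 probes of inositol and raffinose metabolism (circles, coloured by role) and of the 2 MIPS probes (stars). On the left, the drought change in WT (horizontal) is set against that in Stpfld252 (vertical); on the right, the difference between Stpfld252 and WT under control (horizontal) against that under drought (vertical); the dotted line marks equal values, and probes below background in a group are drawn at their fitted change. The stars stand at 4.71 and 5.08 in WT with only 1 galactinol synthase and 1 oxygenase probe near them on that axis, and all 10 purple circles lie below 0 on the right.

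The contigs of the listed probes held 4 further probes that the tables do not list. They were found by contig name and not by their calls, but were added after their values were seen. Drought called 1 of them lower in WT and 2 in Stpfld252, beside 10.3% and 8.14% of all probes, and 0 higher. Between the lines under drought 1 was called lower in Stpfld252, MICRO.1247.C2 (−1.34), beside 5.15% of all probes, and 0 higher. MICRO.8741.C1 was lower in both lines (−1.37 and −1.15), like its listed partner MICRO.8741.C2 (−1.44 and −1.23). The 3 others were faint, each well above background on at most 5 of the 8 arrays.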

How the data were processed

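The authors deposited scanner tables, 1 per array, written by Agilent Feature Extraction (version 11.5.1.1 per the file headers), which hold the median intensity of spots and of local background, a processed signal corrected by that software, and flags, all without normalization between arrays. The authors also deposited a table of log2 values of 32469 probes, made with limma by normexp background correction and quantile normalization. The offset is not given in the sources used here. Over probes, that table followed the scanner values as corrected and normalized here with r = 0.998. Here, in R 4.3.3 with limma 3.58.1, median intensities were corrected by normexp (offset 0) on all spots and quantile normalized on the log2 scale, and control spots were removed. Tested were the 36435 probes (86.7%) with, on both arrays of some group, a signal over 1.1 times that of the 95th percentile among 153 negative controls. One model with 4 group means gave limma's moderated test of the 5 comparisons, with Benjamini-Hochberg adjusted p-values over all tested probes. A probe was called at an adjusted p below 0.05 and over 2-fold. With 2 arrays per group, precision rests on spread shared over groups and moderated across probes.

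The members, the lists and the roles were chosen with earlier results of these data known. Named were the 4 probes, every listed probe for inositol phosphatase, inositol oxygenase and galactinol synthase, the 2 largest WT drought changes of each other role, and the 6 nearest profiles. The probes that share a contig with a listed probe were added after their values were seen. The arrays were not treated as paired by replicate number. Deviations from the group means correlated at −0.11 to 0.13 between same-numbered arrays, which cannot show whether they were paired. In simulated data with 100 probes changed by 1.5 and 100 by 3 on the log2 scale among 36435, the WT drought comparison recovered 86 and 97 of them, 0 with the wrong sign. For the difference between the responses, 77 and 97 were recovered, 0 had the wrong sign, and 3 unchanged probes were called. Alternatives were a normexp offset of 50, scaling of the processed signal to its 75th percentile, median scaling, cyclic loess, the deposited table, no filter, the replicate number as a block, the 4 arrays of one slide, and each array left out. Summaries and figures used Python 3.11.15.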

Additional observations from a re-analysis of the deposited data

Results flagged for a closer look

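The drought responses of the lines differed at 13 of the named probes of inositol and raffinose metabolism, by a called difference (Stpfld252 minus WT, log2 scale) in limma's test. Over all tested probes, 6.14% were called higher and 6.26% lower in this comparison. The named probes came from tables of probes called on these same arrays. For some roles they were picked by the size of their WT drought change, which enters the difference. The count and the adjusted p-values thus describe chosen probes. The responses were lower in Stpfld252 at the inositol oxygenase probe bf_mxflxxxx_0051b11.t3m.scf (−4.75, adjusted p = 5.9e-06, with Stpfld252 and WT control arrays not well above background, −3.04 with a normexp offset of 50 and −7.997 with the processed signal), at the galactinol synthase probes MICRO.14762.C1 (−1.74, adjusted p = 0.0066) and MICRO.5668.C1 (−1.90, adjusted p = 7.0e-05), at the raffinose synthase probes STMGZ03TV (−2.62, adjusted p = 9.3e-06) and cSTS29E8TH (−2.93, adjusted p = 0.00029), and at the phosphoinositide kinase probe MICRO.8830.C1 (−1.06, adjusted p = 0.00087). They were higher in Stpfld252 at MICRO.7446.C1 (1.95, adjusted p = 2.7e-05) and MICRO.7446.C2 (1.67, adjusted p = 3.6e-05) for galactinol synthase, at the alpha-galactosidase probes STMGD95TV (1.28, adjusted p = 0.00027) and MICRO.13196.C1 (1.41, adjusted p = 0.00042), at the 5-phosphatase probe MICRO.16736.C1 (1.35, adjusted p = 0.00015), and at the inositol phosphate kinase probes MICRO.16690.C1 (4.03, adjusted p = 3.9e-06) and MICRO.16690.C2 (3.61, adjusted p = 5.2e-06). At MICRO.7446.C1 WT fell (−1.27) and Stpfld252 changed by 0.68, which was not called. Some of these differences were no longer called under an alternative. At MICRO.14762.C1 this was so with the processed signal (−1.26, adjusted p = 0.13). At MICRO.16736.C1, where no WT drought array was well above background, it was so with a normexp offset of 50 (0.62) and in the deposited table (0.85), while the processed signal gave 3.37. At MICRO.8830.C1 it was so with the offset (−0.96) and without Stpfld252 drought replicate 1 (−0.97) or Stpfld252 control replicate 1 (−0.98).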

How the results depend on the processing

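The mean change of the 2 MIPS probes kept its direction in 25 of 25 values under another background correction or normalization or in the deposited table, and in 24 of 24 with an array of the groups compared left out. It moved by more than the replicate SD of 0.031 in several. This SD understates the spread, since normalization made the drought replicates of MICRO.2503.C3 equal. In WT control and Stpfld252 control the SD of the mean was 0.0049 and 0.013, and that of the single probes 0.052 to 0.11. No filter, the replicate block and the fits of one slide cannot move the mean change. The processed signal gave 4.71 in WT, 3.36 in Stpfld252, 1.23 between the lines under control, −0.12 under drought and −1.34 for the difference of the responses, against 4.89, 3.20, 1.20, −0.50 and −1.69. Median scaling gave 4.82, 3.29, −0.36 and −1.53 for all but the lines under control, and cyclic loess 4.62 in WT, 1.12 between the lines under control, −0.31 under drought and −1.43 for the responses. With each array left out the WT drought change was 4.86 to 4.93 and the lines under drought differed by −0.53 to −0.46. The single reversal was at MICRO.2503.C3 between the lines under drought, 0.15 with the processed signal, and the cause was not tested. At MICRO.2503.C1 and MICRO.2503.C2 0 comparisons were called in every setting, and the counts of called probes of inositol and raffinose metabolism in each direction stayed within 1.5 times, except that with the processed signal 5 and not 8 were lower in watered Stpfld252. Median scaling moved the median drought change of all tested probes in Stpfld252 from 0.05 to 0.20. With the replicate number as a block, 6862 probes were called by drought in WT against 6857. Whether same-numbered arrays come from the same experiment is not stated in the sources used here. Fits of one slide gave only the comparisons of the lines. With 2 arrays per group and a signal at MICRO.2503.C3 near the top of the scale, small differences between the lines under drought are not resolved.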
